A study of Homo sapiens with 7 samples.

Results

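The mitosis and G2/M genes are 39 human genes whose proteins carry cells from the end of DNA replication through chromosome separation to cytokinesis. They were chosen as a list of gene symbols by function, with no measured value in the rule, although earlier results of these data were known. The 39 genes were followed in HCT116 cells given miR-148a-3p or a control miRNA. All 39 had counts in all 6 mRNA libraries, out of 15659 symbols with a count, and all 39 were among the 8921 genes that passed the filter on low counts and were tested. Each gene was placed in 1 of 10 roles, among them mitotic kinases, mitotic kinesins, the spindle checkpoint and centromere proteins.

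Entry into mitosis is driven by the kinase CDK1 bound to cyclin B. CDC25 phosphatases switch this complex on, and Polo-like and Aurora kinases act beside it to separate centrosomes, build the spindle and correct its attachments. The spindle checkpoint holds back the anaphase promoting complex, a ubiquitin ligase, until every kinetochore is attached. Most of these genes are silent in resting and early cycling cells and are switched on together late in the cycle, so in a dividing culture their bulk level follows how many cells are in G2 and mitosis as well as the transcript level per cell. In bulk RNA fewer cells in a phase and less RNA per cell cannot be told apart.

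HCT116 is a human colorectal carcinoma line, and the line used here carried a DROSHA knockout, in the treated cells and the controls alike. DROSHA makes the first cut in turning long microRNA transcripts into mature microRNAs. The treated cells had been transfected with miR-148a-3p (3 libraries) and the controls with a control miRNA (3 libraries), and both were harvested 48 h later. The labels do not say whether the knockout line is 1 clone, or whether replicates came from separate cultures. The p-values therefore reflect the spread among these libraries alone, part or all of which may be technical. Libraries were made from 500 ng of total RNA by oligo-dT priming.

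The miR-148a-3p libraries held 630142 to 1564125 counts and the control libraries 876131 to 1069154. Each library listed 12448 to 13849 genes. Of 12 colon epithelium markers, 7 had counts, among them EPCAM, CDX2, KRT8, KRT18 and KRT19, while KRT20, CDX1, LGR5, CDH17 and MUC2 were at 0 in every library. The colon list summed to 1022 to 2739 counts with miR-148a-3p and to 1473 to 2069 in the controls. All 8 blood cell markers were at 0, and 5 of 9 fibroblast and endothelial markers had counts (sums of 28 to 83 with miR-148a-3p and 34 to 85 in the controls), nearly all from COL1A1. On the first principal component of all tested genes (29.8% of the variance), control replicate 1 lay at −31.4 and miR-148a-3p replicate 3 at 34.2, against −8.29 to 13.1 for the other 4 libraries.

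The microRNA that distinguishes the groups is shown with its seed, bases 2 to 8, in capitals, from the RefSeq record of MIR148A (GRCh38.p14, chr7:25949922-25949943, minus strand).
hsa-miR-148a-3p: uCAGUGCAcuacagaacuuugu

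With miR-148a-3p, 0 of the 39 genes passed the threshold of an adjusted p below 0.05 over all genes tested (edgeR quasi-likelihood test). In the same fit 0.0112% of all genes passed, a single gene, MORF4L1, which is not one of the 39. The fitted value was higher with miR-148a-3p for 28 of the 39 genes (71.8%) and lower for 11, where 49.5% of all genes tested had a higher value. The median log2 fold change of the 39 was 0.18, against −0.0039 for all genes tested. At an unadjusted p below 0.05 there were 4 of the 39, with INCENP and AURKB higher and CCNB2 and CENPF lower, where 6.79% of all genes were at that level (3.4% higher and 3.4% lower). DESeq2 and limma-voom also called 0 of the 39 after adjustment.

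Individual log2 fold changes of the 39 genes ran from −0.59 to 0.93. The 95% confidence interval reached between 0.33 and 0.78 on either side of the estimate (median 0.45), and for 35 of the 39 genes it lay wholly within 1 of 0 on the log2 scale. In simulated counts with the same depth and spread, 4.94% of genes changed by 0.5 on that scale passed the adjusted threshold. The share was 43.5% of those changed by 1 and 94.5% of those changed by 2. Over the 5 sets of such counts, 324, 315 and 309 genes were changed by these amounts. The unadjusted p needed to pass depends on how many genes change, and in the fit of the libraries 1 gene passed. The shares hold for the number of changes put in, and how often such changes would pass in these libraries was not tested. The 39 genes had a median level of 150.6 CPM, against 44.6 CPM for all genes tested. How often genes at the level of the 39 would pass was not tested.

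**Figure D1:**
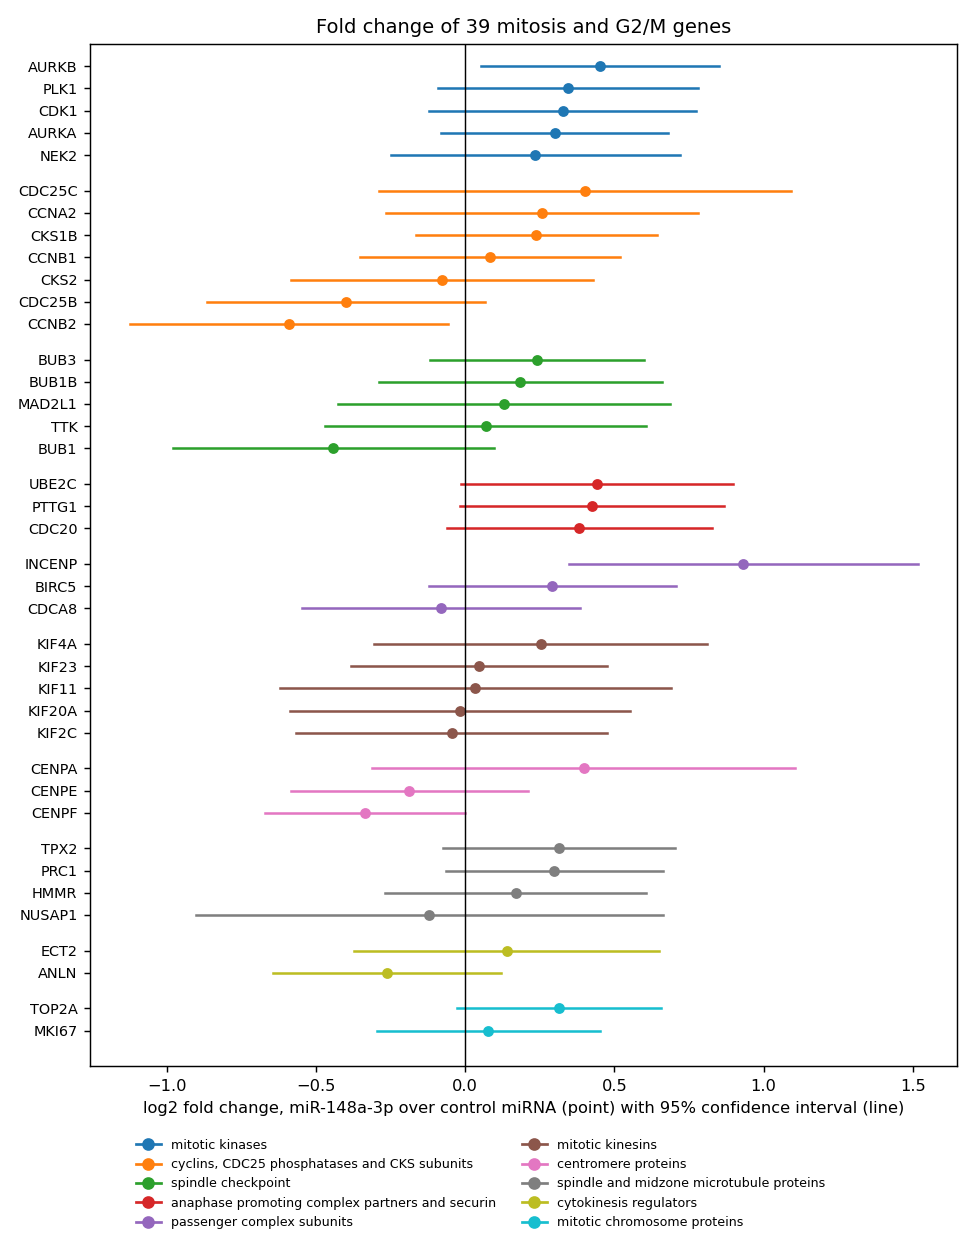
Log2 fold change of each of the 39 genes, miR-148a-3p over control miRNA (points), with its 95% confidence interval (lines), grouped and coloured by role and ordered by fold change within each role. The 5 genes listed as mitotic kinases all lie above 0, from 0.24 to 0.45, INCENP is highest at 0.93 and CCNB2 lowest at −0.59. The kinases BUB1 and TTK are shown with the spindle checkpoint.

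The 5 genes listed as mitotic kinases all had a higher fitted value with miR-148a-3p, with a median log2 fold change of 0.33. This list leaves out the kinases BUB1 and TTK, which were placed with the spindle checkpoint and had log2 fold changes of −0.44 and 0.07. AURKB, the catalytic subunit of the chromosomal passenger complex that corrects faulty kinetochore attachments (chromosome 17, 8204731 to 8210575), had 246, 269.8 and 279.9 CPM with miR-148a-3p, against 147, 210.0 and 224 CPM in the controls. The miR-148a-3p libraries all lay above the controls. Its log2 fold change was 0.45 ± 0.19 (SE) with an adjusted p of 0.681 by edgeR, and it was 0.28 without control replicate 1 and 0.25 without that library and miR-148a-3p replicate 3.

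NEK2, a centrosomal kinase that helps to part the centrosomes (chromosome 1, 211658256 to 211675621), had the smallest fold change among the kinases. It was counted at 99.5, 109 and 128 CPM with miR-148a-3p, against 122, 66.5 and 93.3 CPM in the controls. The groups overlapped, since control replicate 1 was higher than 2 of the miR-148a-3p libraries, and the log2 fold change was 0.24 ± 0.24 (SE) with an adjusted p of 0.891 by edgeR. AURKA, the spindle pole kinase activated by TPX2, averaged 289.5 ± 30.7 CPM with miR-148a-3p and 235 ± 36.6 CPM in the controls (SD, n = 3 each). CDK1, the catalytic partner of cyclins A and B, averaged 213 ± 31.2 CPM with miR-148a-3p and 169 ± 53.0 CPM in the controls. PLK1, the Polo-like kinase that promotes mitotic entry and spindle assembly, averaged 221 ± 22.5 CPM with miR-148a-3p and 174 ± 56.4 CPM in the controls. For all 3 the groups overlapped, and for all 3 the lowest of the 6 values was control replicate 1. Without that library the log2 fold change was 0.09 for CDK1, against 0.33 with all libraries, and 0.15 for PLK1, against 0.34. It was 0.22 for AURKA, against 0.30, while for NEK2 it was larger, at 0.47 against 0.24.

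Among the cyclins, CDC25 phosphatases and CKS subunits, 4 of 7 genes had a higher fitted value and the median log2 fold change was 0.08. CCNB2, a B-type cyclin that binds CDK1 (chromosome 15, 59105146 to 59125045), had 42.8, 52.1 and 57.6 CPM with miR-148a-3p, against 63.6, 75.8 and 87.6 CPM in the controls. All miR-148a-3p libraries were below all controls, from 65, 44 and 35 reads with miR-148a-3p and 66, 65 and 77 in the controls. The log2 fold change was −0.59 ± 0.26 (SE) with an adjusted p of 0.706 by edgeR, with a range of −0.71 to −0.46 when 1 library was left out.

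CCNB1, the other B-type cyclin and the main mitotic one, had a fitted value on the other side of 0. It had 185, 272 and 380.3 CPM with miR-148a-3p, against 256, 231 and 292 CPM in the controls. The treated libraries spanned the whole range of the controls and beyond it on both sides, and the log2 fold change was 0.08 ± 0.21 (SE) with an adjusted p of 0.955 by edgeR. It was −0.19 without miR-148a-3p replicate 3, or −0.21 with control replicate 1 also left out. The difference between the cyclins' fold changes was not tested. CCNA2, the cyclin of S phase and early mitosis, averaged 100.4 ± 20.5 CPM with miR-148a-3p and 82.6 ± 26.9 CPM in the controls, with overlapping groups.

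The CDC25 phosphatases activate CDK1 by removing inhibitory phosphates, and the 2 listed had fitted values on opposite sides of 0. CDC25B, thought to start activation at the centrosome, had 176, 119 and 112 CPM with miR-148a-3p, against 247, 149 and 147.9 CPM in the controls. Replicate 1 was the highest library of each group, and the log2 fold change was −0.40 ± 0.23 (SE) with an adjusted p of 0.750 by edgeR, or −0.10 without control replicate 1 and 0.013 without miR-148a-3p replicate 3 as well. CDC25C had 31.0, 40.2 and 82.3 CPM with miR-148a-3p, against 41.4, 36.2 and 32.99 CPM in the controls. Its higher mean rested on miR-148a-3p replicate 3, without which the log2 fold change was −0.07, against 0.40 with all libraries.

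CKS1B and CKS2 encode small closely related subunits of cyclin-dependent kinase complexes. CKS1B averaged 277 ± 60.3 CPM with miR-148a-3p and 233 ± 35.6 CPM in the controls, while CKS2 averaged 68.7 ± 4.58 CPM with miR-148a-3p and 72.6 ± 14.1 CPM in the controls (SD, n = 3 each). Both pairs of groups overlapped.

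Of the 5 spindle checkpoint genes, 4 had a higher fitted value, with a median log2 fold change of 0.13. BUB3, a WD repeat protein that carries BUB1 and BUB1B to kinetochores (chromosome 10, 123154402 to 123170467), had 374, 435 and 382 CPM with miR-148a-3p, against 297, 341 and 371 CPM in the controls. The groups did not overlap, although the lowest miR-148a-3p library exceeded the highest control by little, and the log2 fold change was 0.24 ± 0.18 (SE) with an adjusted p of 0.817 by edgeR. BUB1, a kinase that marks centromeric chromatin and recruits checkpoint proteins (chromosome 2, 110637528 to 110678063), stood apart from the other 4 with a lower fitted value. It had 69.2, 63.9 and 60.9 CPM with miR-148a-3p, against 54.9, 99.2 and 113 CPM in the controls.

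The miR-148a-3p libraries were close together for BUB1, whereas control replicate 1 was the lowest of all 6 and the other controls the highest. The log2 fold change was −0.44 ± 0.26 (SE) with an adjusted p of 0.767 by edgeR and −0.70 without control replicate 1 (edgeR adjusted p = 0.312), where adjusted p over its alternatives ran from 0.312 to 0.998. BUB1B, the BUBR1 subunit of the mitotic checkpoint complex, averaged 121 ± 33.6 CPM with miR-148a-3p and 104 ± 6.97 CPM in the controls. MAD2L1, the MAD2 protein that binds CDC20, averaged 68.8 ± 17.2 CPM with miR-148a-3p and 62.2 ± 14.4 CPM in the controls. TTK, the MPS1 kinase at the head of the checkpoint, averaged 59.6 ± 10.8 CPM with miR-148a-3p and 56.7 ± 3.44 CPM in the controls. These differences were smaller than the SD of the miR-148a-3p group for all 3 genes.

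The anaphase promoting complex is represented by its activator CDC20, the ubiquitin-conjugating enzyme UBE2C and its substrate securin, PTTG1. All 3 had a higher fitted value, with log2 fold changes of 0.38 to 0.44. CDC20 (chromosome 1, 43358981 to 43363203) had 165, 174 and 171 CPM with miR-148a-3p, against 87.6, 148.2 and 157 CPM in the controls, with no overlap. The treated libraries lay close together and the controls were spread by replicate 1, and the log2 fold change was 0.38 ± 0.22 (SE) with an adjusted p of 0.746 by edgeR, or 0.15 without control replicate 1.

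UBE2C had 187, 228 and 244 CPM with miR-148a-3p, against 101, 179.7 and 204 CPM in the controls (log2 fold change 0.44 ± 0.22, SE, adjusted p of 0.726 by edgeR). PTTG1 had 389.5 to 601 CPM with miR-148a-3p, against 227 to 469 CPM in the controls (log2 fold change 0.43 ± 0.22, SE, adjusted p of 0.726 by edgeR). As with CDC20, control replicate 1 was the lowest of the 6 libraries for both, and the log2 fold change without it was 0.18 for UBE2C and 0.16 for PTTG1. Without miR-148a-3p replicate 3 as well, the values were 0.11 for UBE2C and 0.016 for PTTG1.

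The chromosomal passenger complex joins AURKB to INCENP, BIRC5 and CDCA8. INCENP, the scaffold that binds and activates AURKB (chromosome 11, 62124011 to 62153169), had the largest fold change of the 39 genes. It had 70.5, 74.5 and 80.7 CPM with miR-148a-3p, against 24.1, 50.2 and 44.4 CPM in the controls, counted from 107, 63 and 49 reads with miR-148a-3p and 25, 43 and 39 reads in the controls. The 3 miR-148a-3p libraries were close together and all above the controls, and the ratio of the fitted levels was 1.91. The log2 fold change was 0.93 (SE 0.29, 95% interval 0.35 to 1.52, edgeR adjusted p = 0.398), rank 63 by p among all genes tested. It was 0.66 to 1.14 with 1 library left out and 0.62 without control replicate 1 and miR-148a-3p replicate 3. Over the alternatives its adjusted p ran from 0.204 to 0.998.

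BIRC5, survivin, which targets the complex to centromeres, had 196, 247 and 349 CPM with miR-148a-3p, against 216, 210.0 and 214 CPM in the controls. The controls differed by less than read sampling alone would be expected to give, and the treated libraries lay on both sides of them. CDCA8, borealin, averaged 94.7 ± 7.42 CPM with miR-148a-3p and 99.3 ± 19.5 CPM in the controls. For BIRC5 the log2 fold change was 0.29 (SE 0.20), and it was 0.05 without miR-148a-3p replicate 3, or 0.06 with control replicate 1 also left out. For CDCA8 it was −0.08 (SE 0.23), and 0.08 without control replicate 1. Differences in fold change between INCENP and these subunits were not tested.

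The 5 mitotic kinesins, motor proteins that move along or take apart spindle microtubules, had a median log2 fold change of 0.03, with 3 higher and 2 lower and no gene whose groups were apart. KIF4A, the chromosome-bound motor that limits the length of midzone microtubules (chromosome X, 70290104 to 70420886), had the highest value of the 5. It had 56.7, 76.9 and 135 CPM with miR-148a-3p, against 76.1, 66.5 and 75.1 CPM in the controls. The higher mean came from miR-148a-3p replicate 3, the log2 fold change was 0.25 ± 0.27 (SE) with an adjusted p of 0.895 by edgeR, and it was −0.14 without that library. KIF2C, a kinesin that removes tubulin at microtubule ends near centromeres (chromosome 1, 44739837 to 44767767), had the lowest value of the 5. It had 81.1, 101 and 80.7 CPM with miR-148a-3p, against 85.7, 126 and 59.2 CPM in the controls (log2 fold change −0.05 ± 0.25, SE, adjusted p of 0.984 by edgeR), with the treated libraries inside the range of the controls.

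KIF11, the plus-end motor that pushes spindle poles apart, averaged 59.2 ± 21.2 CPM with miR-148a-3p and 56.1 ± 26.3 CPM in the controls. KIF20A, which brings the passenger complex to the midzone, averaged 57.3 ± 10.95 CPM with miR-148a-3p and 58.4 ± 15.7 CPM in the controls. KIF23, a motor of the central spindle needed for cytokinesis, averaged 125 ± 19.7 CPM with miR-148a-3p and 120.5 ± 1.77 CPM in the controls. For KIF23 the log2 fold change was 0.05 with a 95% interval of −0.38 to 0.48.

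The 3 centromere proteins had a median log2 fold change of −0.19, and they were not uniform. CENPF, a large coiled-coil protein of the outer kinetochore that builds up in G2 (chromosome 1, 214603195 to 214664571), had 672, 575 and 642 CPM with miR-148a-3p, against 792, 798 and 795 CPM in the controls. All treated libraries were below all controls, and the controls had an SD of 3.16 CPM, from 822, 684 and 699 reads. Read sampling alone would be expected to spread such counts by more, so this SD does not measure their precision. The log2 fold change was −0.34 ± 0.16 (SE) with an adjusted p of 0.725 by edgeR, between −0.39 and −0.27 with 1 library left out and −0.35 without control replicate 1 and miR-148a-3p replicate 3.

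CENPE, the kinesin that carries chromosomes to the metaphase plate, had 162, 151 and 149.8 CPM with miR-148a-3p, against 189, 184 and 156 CPM in the controls. The treated libraries lay at the low end, with 1 of them above the lowest control (log2 fold change −0.19 ± 0.19, SE, adjusted p of 0.893 by edgeR). CENPA, the histone H3 variant that marks the centromere (chromosome 2, 26786056 to 26794589), had a higher fitted value. It had 27.7, 35.5 and 49.4 CPM with miR-148a-3p, against 21.2, 32.7 and 29.6 CPM in the controls (log2 fold change 0.40 ± 0.35, SE, adjusted p of 0.876 by edgeR). Its groups overlapped, and without control replicate 1 and miR-148a-3p replicate 3 the log2 fold change was 0.0050.

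**Figure D2:**
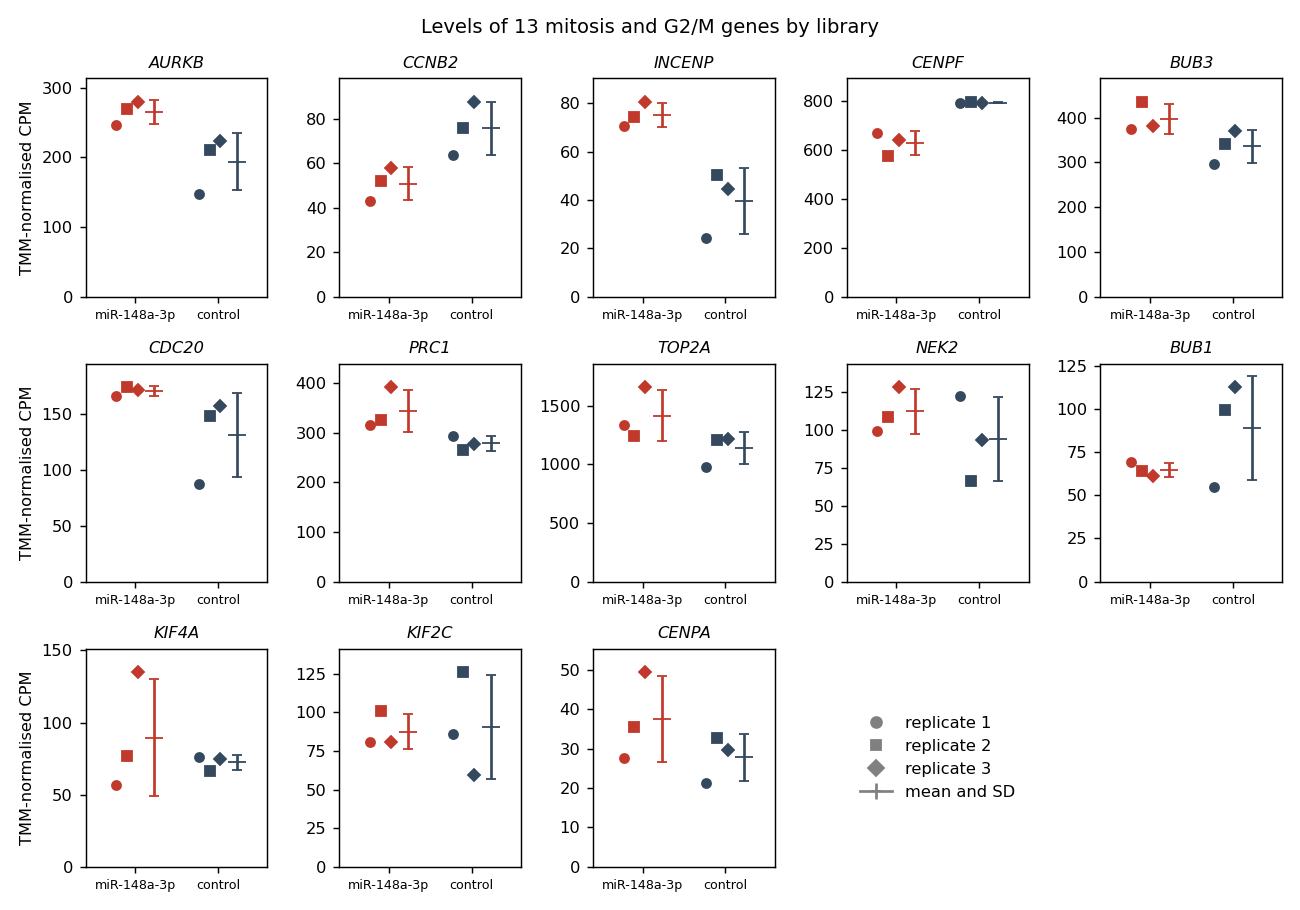
TMM-normalised CPM in each library for the 13 genes with an unadjusted p below 0.05, without overlap between groups, or with the highest or lowest fold change among the kinases, kinesins, checkpoint or centromere genes (miR-148a-3p left, control miRNA right, bars mean and SD over 3 libraries, vertical axes from 0). INCENP, AURKB, BUB3, CDC20, PRC1 and TOP2A show no overlap with miR-148a-3p above, and CCNB2 and CENPF none with miR-148a-3p below.

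Among the spindle and midzone proteins, 3 of 4 genes had a higher fitted value (median log2 fold change 0.23). PRC1, which bundles the antiparallel microtubules of the midzone (chromosome 15, 90966040 to 90994535), had 314, 325 and 391.8 CPM with miR-148a-3p, against 294, 265 and 276 CPM in the controls. The groups did not overlap, and the log2 fold change was 0.30 ± 0.18 (SE) with an adjusted p of 0.767 by edgeR. TPX2, the activator of AURKA and a nucleator of spindle microtubules, averaged 417 ± 99.0 CPM with miR-148a-3p and 333 ± 39.5 CPM in the controls. HMMR, a spindle-associated hyaluronan receptor, averaged 172 ± 38.2 CPM with miR-148a-3p and 152 ± 29.2 CPM in the controls. NUSAP1, a microtubule-binding protein near chromosomes, had the lowest CPM of the 39 genes, at 30.4 ± 4.61 CPM with miR-148a-3p and 32.9 ± 17.1 CPM in the controls.

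For the cytokinesis regulators, ECT2, the exchange factor that activates RHOA at the cell equator, had a log2 fold change of 0.14 (SE 0.25), and of −0.11 without control replicate 1. ANLN, anillin, a scaffold of the contractile ring, had 233, 259 and 349 CPM with miR-148a-3p, against 326, 338 and 337 CPM in the controls. Of the treated libraries 2 were below every control and 1 above every control, and the log2 fold change was −0.26 ± 0.19 (SE) with an adjusted p of 0.807 by edgeR, or −0.44 without miR-148a-3p replicate 3.

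TOP2A and MKI67, which act on mitotic chromosomes, had the highest CPM of the 39 genes. TOP2A, the topoisomerase that untangles sister chromatids (chromosome 17, 40388525 to 40417896), had 1339, 1242 and 1659.5 CPM with miR-148a-3p, against 979.6, 1211 and 1218 CPM in the controls. There was no overlap between the groups, and the log2 fold change was 0.31 ± 0.17 (SE) with an adjusted p of 0.726 by edgeR, or 0.09 without control replicate 1 and miR-148a-3p replicate 3. MKI67, the Ki-67 protein that coats mitotic chromosomes and is used to stain dividing cells, had 653, 867 and 1134 CPM with miR-148a-3p, against 793, 897 and 816 CPM in the controls. The treated libraries lay on both sides of the controls, with a log2 fold change of 0.08 (SE 0.18, 95% interval −0.30 to 0.45). It was −0.14 without miR-148a-3p replicate 3, or −0.17 with control replicate 1 also left out.

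Counting all 39 genes, 6 had all miR-148a-3p libraries above all controls (INCENP, AURKB, BUB3, CDC20, PRC1 and TOP2A) and 2 had them all below (CCNB2 and CENPF). Of all genes tested, 6.22% were higher and 6.59% lower without overlap.

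Setting the 4 roles side by side, the median log2 fold change was 0.33 for the kinases, 0.13 for the checkpoint, 0.03 for the kinesins and −0.19 for the centromere proteins. With 1 library left out in turn, the kinases ranged from 0.22 to 0.43, the checkpoint from 0.03 to 0.29, the kinesins from −0.08 to 0.19 and the centromere proteins from −0.27 to −0.14. The kinesin median thus changed sign, while the kinase median was above 0 and the centromere median below 0 in each of the 6 fits. In each of these fits the centromere median was the value of a single gene, CENPE, itself a kinesin but counted with the centromere proteins. BUB1 and TTK, also kinases, were counted with the checkpoint. These medians rest on 3 to 5 genes each in the same libraries, and the differences between roles were not tested. Without control replicate 1 and miR-148a-3p replicate 3 together, the medians were 0.14 for the kinases, 0.05 for the checkpoint, −0.10 for the kinesins and −0.11 for the centromere proteins.

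**Figure D3:**
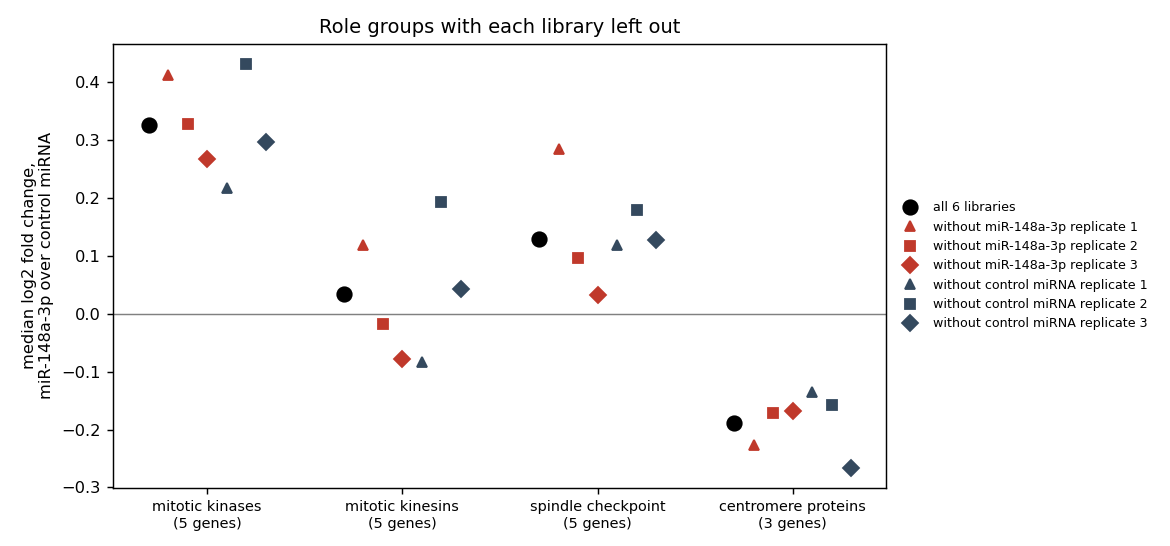
Median log2 fold change, miR-148a-3p over control miRNA, of the genes of 4 roles, with all 6 libraries (black) and with each miR-148a-3p library (red) or control library (dark blue) left out. The kinases stay between 0.22 and 0.43 and the centromere proteins between −0.27 and −0.14, while the kinesins cross 0. The centromere median is the value of CENPE in each fit.

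The 39 genes together took 0.763%, 0.877% and 0.996% of the counts with miR-148a-3p, against 0.718%, 0.838% and 0.811% in the controls. On the log2 scale, the mean of the 39 genes relative to the 6 libraries was −0.12, 0.09 and 0.26 with miR-148a-3p, against −0.23, 0.05 and −0.05 in the controls. The groups overlapped, with miR-148a-3p replicate 1 below 2 of the controls.

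Of the 39 genes, 22 had their highest value in miR-148a-3p replicate 3, which was the highest library for 19.6% of all genes tested, and 0 had it in miR-148a-3p replicate 1, the highest library for 10.9% of all genes tested. Control replicate 1 was the lowest library for 17 of the 39, and for 21.6% of all genes tested. For miR-148a-3p replicate 1 the numbers were 10 of the 39 and 10.8% of all genes tested. The median of the 39 genes relative to the 6 libraries was −0.10 in both of these libraries. Replicate 3 with miR-148a-3p was also the smallest library and replicate 1 with miR-148a-3p the largest. After thinning every library to the smallest, the median log2 fold change was 0.23. Thinning keeps the expected proportions within each library, so it could not test for other differences that go with library size. Without control replicate 1 and miR-148a-3p replicate 3, 23 of the 39 genes had a higher fitted value and the median was 0.016. Control replicate 1 had the lowest mean of the 39 genes and miR-148a-3p replicate 3 the highest. Leaving both out was therefore bound to narrow the mean difference between the groups, and it does not test whether that difference holds.

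**Figure D4:**
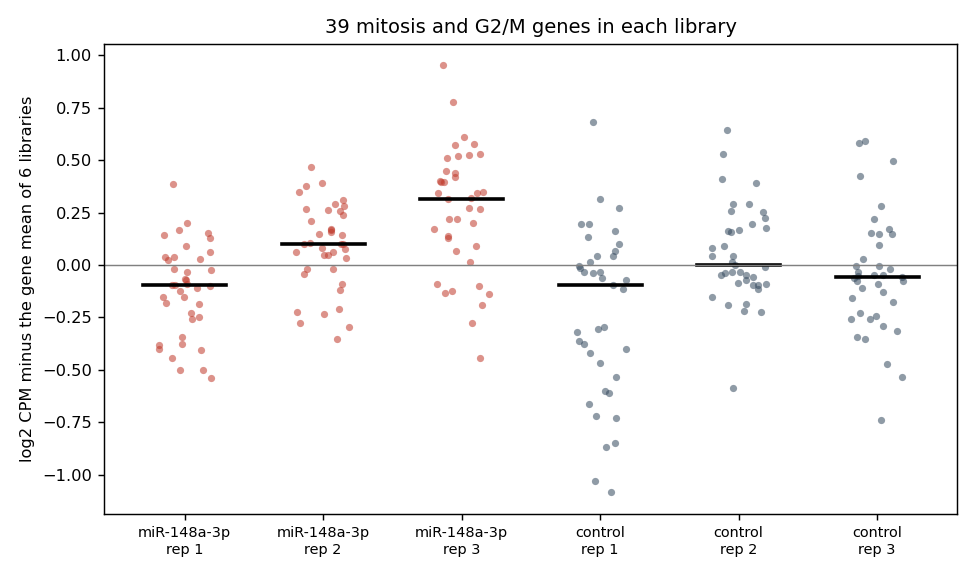
Log2 CPM of each of the 39 genes minus its mean over the 6 libraries, by library (miR-148a-3p red, control miRNA dark blue), with the median of the 39 genes as a black bar. The median is highest in miR-148a-3p replicate 3 at 0.31, and the lowest single value, of INCENP, is in control replicate 1.

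Of 117 further listed genes of mitosis 107 were tested, 64 (59.8%) had a higher and 43 a lower fitted value (median log2 fold change 0.10), and 0 passed in either direction. Regulators of G2/M transcription had 8 of 13 higher (median 0.21), with FOXM1, the forkhead activator of many of the 39 genes, at 24.3 ± 12.3 CPM with miR-148a-3p and 13.1 ± 4.42 CPM in the controls (log2 fold change 0.82 ± 0.48, SE, adjusted p of 0.762 by edgeR). Among inhibitors of entry into mitosis and checkpoint kinases 3 of 6 were higher, led by PKMYT1, which phosphorylates CDK1 to keep it inactive. PKMYT1 was at 88.3 ± 38.2 CPM with miR-148a-3p and 43.3 ± 11.9 CPM in the controls (log2 fold change 0.99 ± 0.31, SE, adjusted p of 0.401 by edgeR). For both FOXM1 and PKMYT1 the groups overlapped, and the highest library was miR-148a-3p replicate 3, at 37.9 and 125 CPM.

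Subunits and regulators of the anaphase promoting complex had 6 of 13 higher (median −0.01), with ANAPC15 at 0.75 (SE 0.26) and ANAPC4 at 0.83 (SE 0.38). Condensin and cohesin genes had 10 of 16 higher (median 0.13), kinetochore genes 20 of 31 (median 0.19), and the other spindle and cytokinesis genes 17 of 28 (median 0.08). At an unadjusted p below 0.05 there were 7 of the 107 genes, 6 higher and 1 lower, where 6.79% of all genes tested were at that level. The lower one was CKAP2, a spindle microtubule protein (log2 fold change −0.53 ± 0.23, SE, adjusted p of 0.703 by edgeR). G1/S and replication genes had 25 of 32 higher with a median of 0.25 and 0 past the threshold. Their mean relative to the 6 libraries was −0.22, 0.32 and 0.34 with miR-148a-3p, against −0.44, 0.08 and −0.07 in the controls, so control replicate 1 was lowest for them as well.

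Many late cell cycle promoters carry a CHR element (cell cycle genes homology region), which the DREAM and MMB-FOXM1 complexes bind, and CCAAT boxes upstream of it, which the factor NF-Y binds. RefSeq promoter windows of 250 bases before to 50 after the transcription start were found for 33 of the 39 genes, 43 windows in all. AURKA, BIRC5, BUB3, TPX2, TTK and UBE2C were not matched. The CHR was searched as TTTGAA or TTCGAA and the CCAAT box as CCAAT, both on either strand. CHR and CCAAT letters, or copies of one of them, overlapped in 5 pairs of matches.

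Of the 33 genes with a window, 25 had a CHR match and 29 a CCAAT match, features that the list did not use. A CHR match lay in 65.1% of the windows of these genes, against 16.4% of all 35116 promoter windows. Within the last 60 bases before the start, a limit chosen after the matches were seen, the shares were 41.9% and 3.17%. A CCAAT match lay in 79.1% of their windows, against 34.6% of all, and 2 or more lay in 48.8%, against 10.8% of all. Both a CHR in the last 60 bases and a CCAAT match were in 37.2% of their windows and in 1.23% of all windows. The 21 CHR matches in the last 60 bases began at a median of 28 bases before the start. These are matches of letters in a window, and no binding was measured.

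The following stretches are the 125 bases just before the start, on the gene's strand, for INCENP and AURKB with the highest values among the genes at an unadjusted p below 0.05, CCNB2 and CENPF with the lowest, and PRC1 and CDC20 as further genes without overlap. Capitals mark CHR and CCAAT matches. They lie at chr11:62123886-62124010 for INCENP, chr17:8210226-8210350 for AURKB (minus strand), chr15:59105021-59105145 for CCNB2, chr1:214603070-214603194 for CENPF, chr15:90994536-90994660 for PRC1 (minus strand) and chr1:43358856-43358980 for CDC20 (RefSeq, GRCh38.p14).
INCENP: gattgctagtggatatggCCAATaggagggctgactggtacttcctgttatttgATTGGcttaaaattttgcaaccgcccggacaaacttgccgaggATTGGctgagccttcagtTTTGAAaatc
AURKB: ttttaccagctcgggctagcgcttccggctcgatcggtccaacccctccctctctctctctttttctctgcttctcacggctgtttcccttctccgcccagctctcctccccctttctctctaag
CCNB2: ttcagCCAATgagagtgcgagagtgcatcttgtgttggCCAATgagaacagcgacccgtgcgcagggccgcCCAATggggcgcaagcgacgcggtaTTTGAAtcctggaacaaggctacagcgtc
CENPF: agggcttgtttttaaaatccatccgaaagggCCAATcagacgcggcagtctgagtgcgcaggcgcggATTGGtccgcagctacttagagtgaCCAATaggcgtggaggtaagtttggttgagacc
PRC1: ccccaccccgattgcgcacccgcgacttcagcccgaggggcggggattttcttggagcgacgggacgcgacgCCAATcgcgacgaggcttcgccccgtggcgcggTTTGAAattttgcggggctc
CDC20: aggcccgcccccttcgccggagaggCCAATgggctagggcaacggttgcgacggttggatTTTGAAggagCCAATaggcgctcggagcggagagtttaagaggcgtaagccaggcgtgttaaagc

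In the stretch of CCNB2, 3 CCAAT boxes begin 120, 87 and 54 bases before the start, each 33 bases from the next, and the CHR begins 29 bases before it. INCENP, with a higher fitted value, holds the same kinds of match as CCNB2, with a lower one. AURKB has several windows, of which the first listed is shown, and holds neither in this stretch. A CCAAT match begins 153 bases before the start of that window, beyond the stretch. That start also lies inside the span given for the gene, so the absence depends on the start and length shown. The 18 genes with a CHR in the last 60 bases had a median log2 fold change of 0.18, with 13 higher and 5 lower, and the 15 genes with a window but no such match had a median of 0.13, with 9 higher and 6 lower. Genes with and without a CHR in the last 60 bases thus covered overlapping ranges, from −0.59 to 0.93 with it and from −0.44 to 0.45 without it. Of the 15 genes, BUB1, CDC20, CENPF, ECT2, MAD2L1, NUSAP1 and TOP2A had a CHR match elsewhere in their windows. The comparison is therefore not one of genes with and without a CHR.

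**Figure D5:**
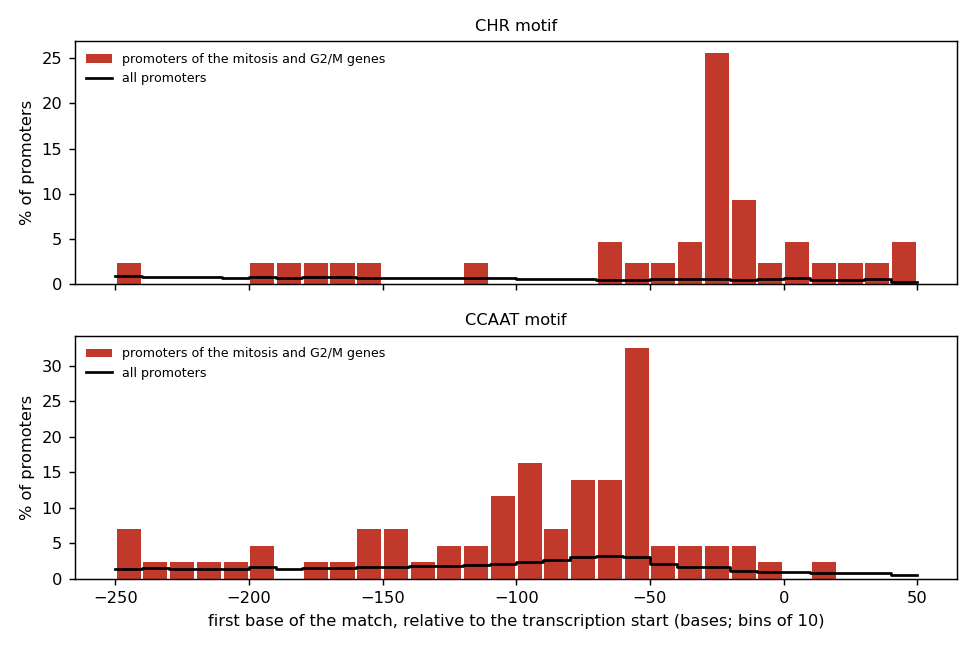
Share of promoter windows with a CHR match (top) or a CCAAT match (bottom) by position of its first base relative to the transcription start, in bins of 10 bases, for the 43 windows of the mitosis and G2/M genes (red bars) and for all 35116 windows (black line). CHR matches of the mitosis genes peak at 25.6% in the bin from 30 to 21 bases before the start, and CCAAT matches at 32.6% in the bin from 60 to 51 bases before it.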

How the data were processed

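Each library came as a list of gene symbols with raw counts of reads, as deposited by the authors. Genes absent from a list were set to 0. The tools (Bowtie2, cutadapt, STAR) and the build (GRCh38) are named per the submitters' processing notes. Which step each served, its version, the counter and any strand setting were not given in the sources used here, so overlapping genes can share reads. The main test was edgeR's (version 4.0.16, R 4.3.3; TMM, filterByExpr by group, quasi-likelihood F test, group as the only term), with Benjamini-Hochberg adjustment over all 8921 genes tested. Levels are TMM-normalised CPM, and log2 values by library used a prior count of 2. SEs and 95% intervals come from the F statistic. Library pairs within a group differed by 2.52 to 5.30 times Poisson variance. A two-sided exact permutation test at this size has a smallest p of 0.1, and none was used. The scripts were tested on 5 sets of simulated counts for 8921 genes.

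The genes and lists were chosen with earlier results of these data known. Full values are given for genes at an unadjusted p below 0.05, genes whose groups did not overlap, and the highest and lowest genes of 4 roles, and at most 3 genes of each other list are named. The values given in full for CCNB1, CDC25B, CDC25C, UBE2C, PTTG1, BIRC5, CENPE, ANLN and MKI67 were chosen after they were seen. Alternatives were other size factors, DESeq2 1.42.0, limma-voom (limma 3.58.1), other count filters, thinning to 630142 counts, the replicate number as a block, each library left out, and reads of copies (AURKAP1, KIF4B) added. Leaving out 2 libraries together was added after the data were seen. These were the libraries with the lowest and the highest mean of the 39 genes, so their mean difference could only narrow. The small RNA library was not used here. Gene spans, promoter windows and the microRNA are from RefSeq (GRCh38.p14).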

Additional observations from a re-analysis of the deposited data

How the results depend on the processing

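Over 16 alternatives, 1 of them chosen after the data were seen, 0 of the 39 genes passed the adjusted threshold. The number at an unadjusted p below 0.05 was 4 with all libraries, 2 to 7 with 1 library left out and 8 with the replicate block. Of all genes, 8.61% were at that level with the block, 7.98% without miR-148a-3p replicate 1 (7 of the 39), 6.61% without control replicate 3 (7 of the 39) and 5.04% without miR-148a-3p replicate 2 (2 of the 39). The number with a higher fitted value was 28, with 23 to 32 when 1 library was left out. Their median log2 fold change ran from 0.06 without miR-148a-3p replicate 3 to 0.34 without miR-148a-3p replicate 1, and was 0.016 without control replicate 1 and miR-148a-3p replicate 3, where the kinase median was 0.14. The checkpoint median ran from 0.032 to 0.29. Of the 39 genes, 23 had the same sign in every alternative. The sign turned in at least 1 for the other 16, which were CCNB1, CDC25B, CDC25C, CKS1B, CKS2, MAD2L1, TTK, CDCA8, KIF11, KIF20A, KIF23, KIF2C, KIF4A, NUSAP1, ECT2 and MKI67. KIF4A was at −0.14 without miR-148a-3p replicate 3, or −0.10 with control replicate 1 also left out, and KIF2C changed sign in 4 alternatives, none of them with a call; the cause was not tested.

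Over all genes tested, the number called was 1 with all libraries, 2 with DESeq2, 3 with limma-voom, 18 without the count filter, 2 after thinning, 3 with the replicate block and 10 with both libraries left out together, and it ran from 1 to 26 with 1 library left out (26 without control replicate 1). Same-numbered libraries of the 2 groups had correlated deviations of 0.13, 0.09 and −0.0018, and not every library correlated best with its own number, so the numbers were not taken to pair the samples. Adding the reads of copies, 14 with miR-148a-3p and 6 in the controls for AURKAP1 and 0 and 1 for KIF4B, changed no call. Counts of 14 to 2031 reads per gene and library limit the precision. The intervals were widest for NUSAP1, CENPA, CDC25C and KIF11, and the cause of their width was not tested.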
